A study of Drosophila eugracilis and Drosophila pseudoobscura and Drosophila bifasciata with 4 samples.

Results

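The polyadenylated RNA of D. eugracilis ovaries was described from the 1 library of its group, out of 4 libraries in the series, by taking every deposited genome-unique alignment. The library held 13099511 of the 47498367 alignment lines of the series. Lines were joined by read name, so that each read pair counted once, which gave 6551749 read names, of which 6547762 had both mates and 3987 had a single alignment. The ovaries came from wild type females of the strain labelled SHL12, and the methods of the study give another stock name for the species, a difference that was not settled here. In all 4 groups the flies were wild type females on standard food, with no allele or agent applied, and were 2 to 7 days old by the characteristics, whereas the protocol gives an age from 3 days on. The other groups were ovary polyA RNA of D. pseudoobscura (strain MV2-25) and D. bifasciata (strain Jozankei, Hokaidou) and a QuantSeq library of D. eugracilis ovaries (strain SHL12), in which priming on the poly-A tail places reads at RNA 3' ends. Each group had 1 library, so no value below has a replicate check and no test was made, and the intervals given cover counting error only.

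Messenger RNA is transcribed by RNA polymerase II, and its introns are removed and its 3' end cleaved and polyadenylated before export. In the fly ovary the transcripts come from nurse cells and the oocyte, which share one cytoplasm, and from the somatic follicle cells around them, which secrete the eggshell in the last stages. piRNA precursors are made in the same tissue, and the study looked at piRNA clusters in D. eugracilis, in which it describes yb as a pseudogene. Selection on poly-A tails keeps messenger RNA and other polyadenylated transcripts and removes most ribosomal RNA. In whole ovaries, fewer cells of a type and less RNA per cell cannot be told apart. The gene table used here carries locus numbers in place of gene names, and none of the 106 symbol entries in the lists of germline, follicle cell, muscle, fat body, haemocyte, testis, piRNA pathway and maternal genes matched it. The ovary label was therefore not checked against marker genes, and no function is given to a locus.

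Alignments on the same strand that overlapped or touched were merged, and merged stretches were joined where at least 3 pairs crossed the same intron of 40 to 100000 nt. The result is called a transcription unit, and a unit was described when at least 10 pairs lay in it. The minimum of 10 pairs corresponds to 1.53 CPM, the pairs per 1000000 pairs of the library. This gave 11721 units, 5925 on the plus strand and 5796 on the minus strand, spread over 213 of the 439 contigs with alignments. They held 98.5% of the pairs and covered 14.0 Mb. A further 38433 stretches held 1 to 9 pairs each. Another 334 units were left out because they lay opposite a unit with at least 100 times as many pairs, and they held 0.214% of the pairs.

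Most units were spliced, and nearly all pairs lay in spliced ones. An intron was found in 7540 units (64.3%), and these units held 90.9% of the pairs. The 4181 units without an intron were short, with a median span of 471 nt (quartiles 322 to 731), against 1815.5 nt (990 to 3833) for spliced units. Over all units the median span was 1095 nt and the median covered length 852 nt, and 10% of the units spanned more than 6501 nt. A spliced unit had a median of 2 introns and 3 exons, and 10% had 6 introns or more. Units with 1 intron made up 23.7% of all units and those with 2 made up 15.2%, whereas units with 11 introns or more were rare (85 units, 0.725%).

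**Figure D1:**
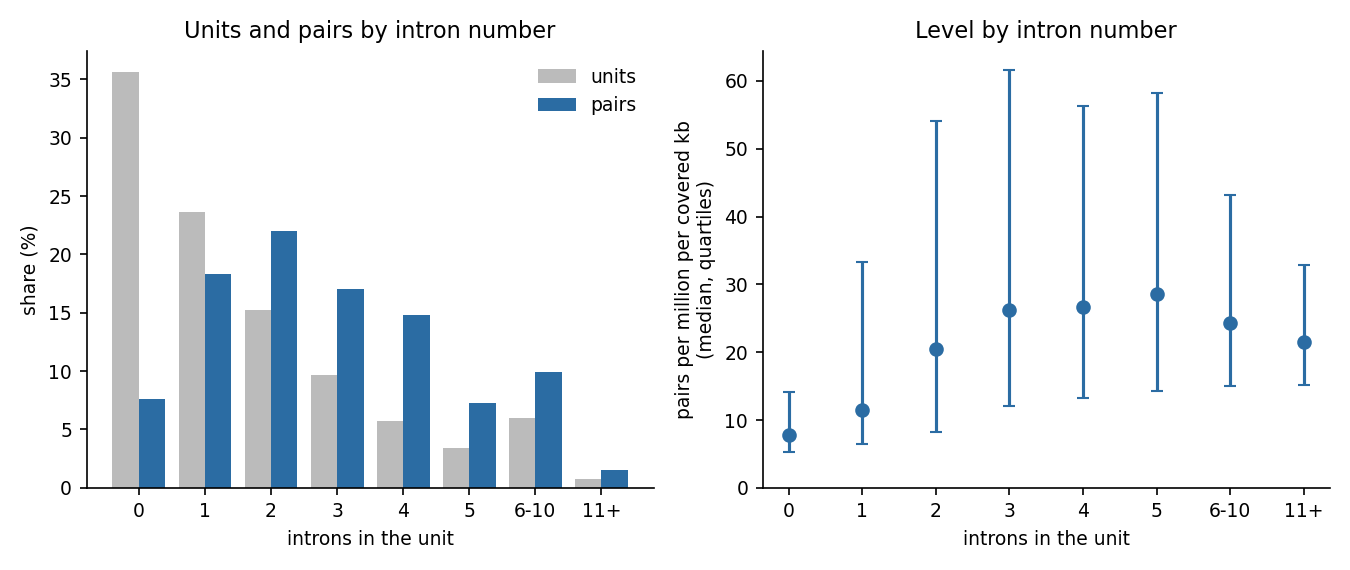
Left, share of the units (grey) and of the pairs (blue) in percent by the number of introns in the unit. Right, level in CPM per covered kb (point, median; bars, quartiles). Units without an intron are 35.7% of the units and hold 7.61% of the pairs, and the median level rises from 7.74 without introns to 28.5 with 5 introns.

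The level per covered length differed between intron classes less steeply than the pair number. Units without introns had a median of 22 pairs and 7.74 CPM per kb of covered length (quartiles 5.33 to 14.2). Units with 3 introns had a median of 280 pairs and 26.3 CPM per kb (12.1 to 61.6). Units with 11 introns or more had a median of 635 pairs and 21.5 CPM per kb (15.1 to 32.8). The quartile ranges of all classes with introns overlapped each other. Units with few pairs can miss introns that too few pairs crossed, and this part of the difference cannot be told apart from intron number. By span, units under 500 nt were 22.8% of the units and held 1.21% of the pairs, and units of 1000 to 2000 nt held 30.7%. Units that spanned 20000 nt or more were 3.53% of the units and held 12.3% of the pairs.

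Introns were short, with a long tail. The 20559 introns chosen as a non-overlapping set, best supported first, had a median length of 69 nt (quartiles 60 to 310). The commonest length was 59 nt, found in 883 introns, and 56.6% were shorter than 80 nt. Introns of 1000 nt or more made up 13.4% of the introns and 89.0% of all intron bases, and 510 introns (2.48%) reached 10000 nt. Internal exons, those between neighbouring chosen introns, had a median of 212 nt (136 to 410, 13018 exons), and 35.8% of them were divisible by 3, against 32.3% with a remainder of 1.

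The first intron of a unit was the longest by median. In the 2983 units with at least 3 introns, the first intron from the 5' end had a median of 180 nt (quartiles 63 to 1083), the second 71 nt, the third 66 nt and the last 65 nt (59 to 151). First introns reached 1000 nt in 26.0% of these units, and last introns in 7.98%. All introns but the first had a median of 67 nt. The quartile ranges of first and last introns overlapped.

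**Figure D2:**
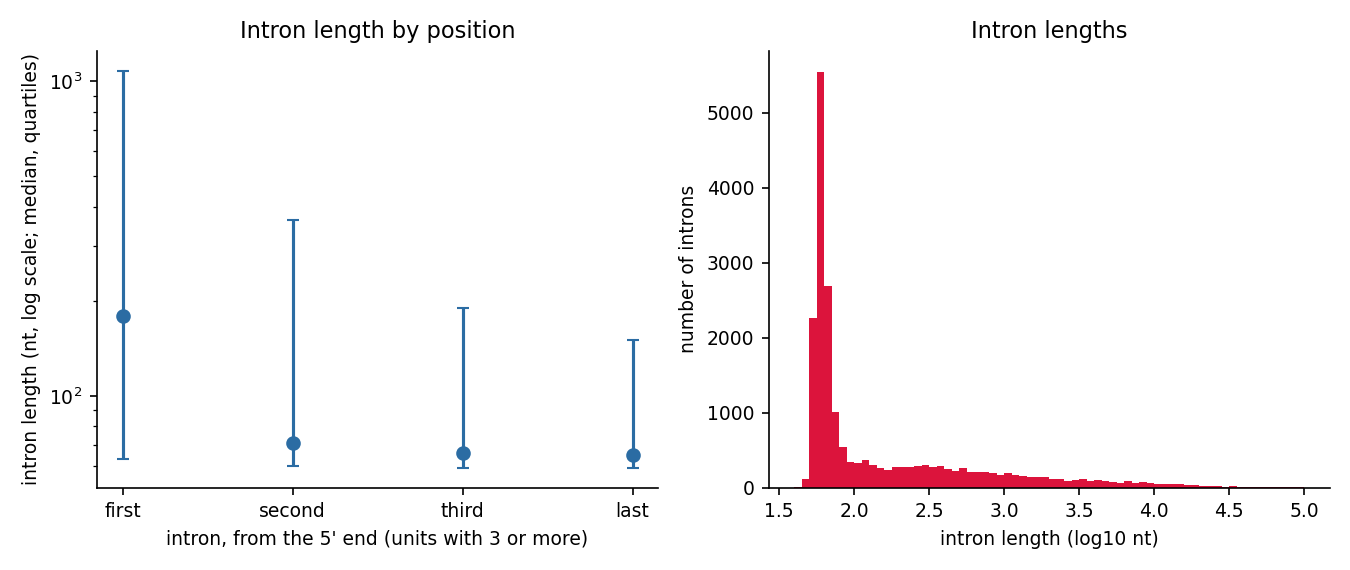
Left, intron length in nt (log scale; point, median; bars, quartiles) by position from the 5' end of the unit, which can be part of a gene, in the 2983 units with 3 introns or more. Right, number of introns by length (log10 nt). First introns have a median of 180 nt and last introns of 65 nt, and the lengths peak sharply near 59 nt with a tail to 98045 nt.

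Introns seen spliced were seldom also seen unspliced. For each chosen intron with at least 20 informative pairs, pairs that ran across its ends without a splice were compared with pairs that crossed it spliced. Only introns already crossed by at least 3 spliced pairs entered, so retained introns with fewer spliced pairs are left out by construction. Introns crossed mostly without a splice could still enter in deep units. The count was made at the ends of an intron, so a high unspliced share need not mean that the intron was kept. Whether introns with a share above 50% were retained was not tested. Of the 20559 chosen introns, 9622 had enough pairs. In 93.1% of the 9622 introns the unspliced share was under 5%. It was above 50% in 245 introns (2.55%), and this was 1.76% of introns under 80 nt and 6.43% of introns of 1000 nt or more. In units of 1000 CPM or more it was above 50% in 50 introns (11.9%), where introns crossed by a few pairs of a very deep unit also count as chosen. The most used intron of LOC121530328, for example, was crossed spliced by 35967 pairs and unspliced by 105 (0.291%). That of LOC108107273 was crossed spliced by 32756 pairs, with an unspliced share of 0.00153%. Others went the other way. The most used intron of the unit over LOC108113223 was crossed spliced by 4 pairs, with an unspliced share of 99.9%. This intron has 14168 nt and its unit covered 745 nt, so most of the intron was not covered by the unit. The most used intron of the unit from 1263 to 9946 of NW_024571840.1 was crossed spliced by 29 pairs, with an unspliced share of 98.5%.

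Alternative introns, which overlapped a chosen intron and had at least 10% of its pairs, were found in 843 spliced units (11.2%). They were found in 21.5% of the 947 spliced units with 1000 pairs or more and in 3.38% of the 2754 spliced units with under 100 pairs, so the share followed the number of pairs. Of the 1205 alternative introns, 537 shared the 3' splice site, 459 shared the 5' splice site, 69 skipped exons and 140 shared neither site with a single chosen intron.

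The levels of units spanned 4 orders of magnitude, and few units held much of the library. The median unit held 80 pairs (12.2 CPM), 10% of the units were under 1.98 CPM and 10% were over 135 CPM. The histogram of levels had a first peak of mostly unspliced units under 10 CPM and a second, broader one of mostly spliced units near 50 CPM. Units under 10 CPM were 47.1% of all units and held 2.12% of the pairs, and 39.8% of them were spliced. Units of 10 to 100 CPM held 18.2% of the pairs and units of 100 to 1000 CPM 35.2%, with 83.9% and 92.3% of the units spliced. The 150 units of 1000 CPM or more were 1.28% of the units and held 43.0% of the pairs.

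**Figure D3:**
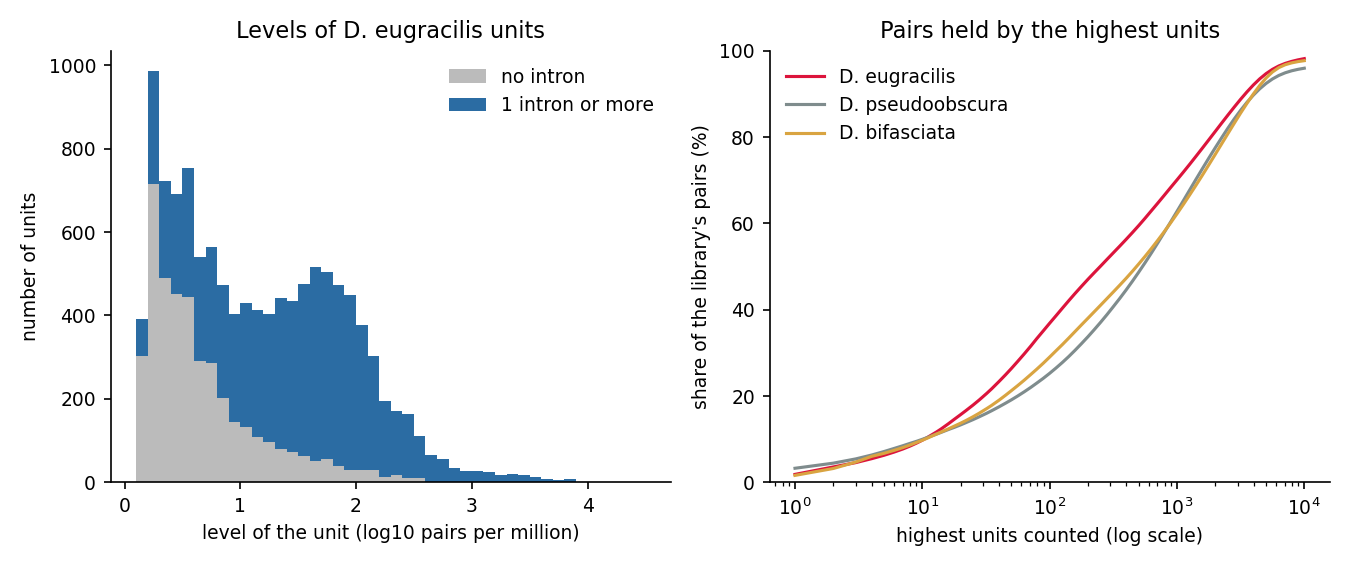
Left, number of units by level (log10 CPM), with units without an intron in grey and spliced units in blue. Right, share of a library's pairs in percent (y) held by its highest units (x, log scale) in the 3 polyA libraries. The 100 highest units hold 36.9% in D. eugracilis, 25.3% in D. pseudoobscura and 29.0% in D. bifasciata.

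The concentration of pairs lay beyond the very highest units. The highest unit held 1.86% of the pairs (exact binomial 95% interval 1.85 to 1.87), the 10 highest 9.78% (9.76 to 9.81), the 100 highest 36.9% (36.8 to 36.9) and the 1000 highest 70.1%. Only 46 units held 25% of the pairs, 250 units held 50% and 3435 held 90%. The share of the 10 highest was similar in the other polyA libraries, at 9.99% in D. pseudoobscura and 9.78% in D. bifasciata, but 537 and 481 units were needed there for 50% of the pairs. The Gini coefficient of pairs over units, which is 0 when all units hold the same number, was 0.828 in D. eugracilis, 0.802 in D. pseudoobscura and 0.777 in D. bifasciata. With 1 library a species, a species difference and a library difference cannot be told apart.

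Pairs with identical coordinates in all blocks were common in the highest units. Distinct fragments numbered 4042605, or 61.7% of the pairs, against 78.2% in D. pseudoobscura and 54.0% in D. bifasciata. They made up 81.1% of the pairs of units under 10 CPM and 42.0% of those of units of 1000 CPM or more. Counted on distinct fragments, the 100 highest units of D. eugracilis held 23.7% and 556 units held 50%. How many identical pairs came from amplification and how many from separate molecules was not tested.

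The 20 highest units held 15.7% of the pairs, between 4885 and 18638 CPM each. Of these 20 units, 18 were spliced, 10 lay on each strand, and they came from 14 contigs. The genes under 14 of them were protein-coding, and the other 6 lay on contigs to which no genes could be assigned. Their covered length was 573 to 5243 nt with a median of 1354 nt. The highest had 18638 CPM (exact Poisson 95% interval 18534 to 18743; 122113 pairs). It lay on the minus strand of contig NW_024573369.1, from 2072452 to 2074418 of assembly ASM1815383v1, over LOC121530328. Its next neighbour among the 20, over LOC121530325, lay on the same strand from 2075747 to 2077044 with 6811 CPM and 44623 pairs.

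**Figure D4:**
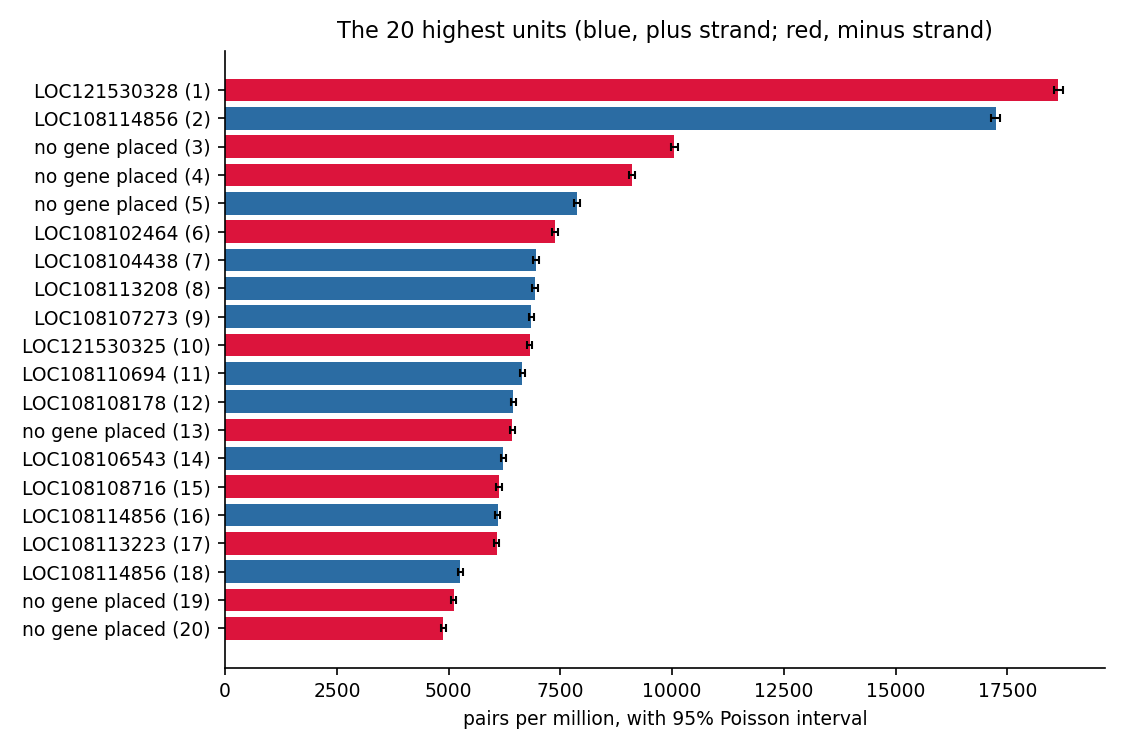
Level in CPM of the 20 highest units (bars; whiskers, exact Poisson 95% intervals of counting error), with the rank in brackets, on the plus (blue) or minus strand (red). Labels give the gene with most of the unit's aligned bases, and a unit can share bases with further genes. The first 2 units stand at 18638 and 17239 CPM, and the other 18 lie between 4885 and 10052 CPM.

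A second group of high units lay on contig NW_024572672.1, all on the plus strand. Its 4 members among the 100 highest together held 3.05% of the pairs. As defined above, the unit of rank 2 ran from 25468 to 40507 and that of rank 18 from 18758 to 63589. When introns also had to be crossed by at least 1% of the pairs at their deeper end, the stretches that held most of each unit's pairs fell within 5927 nt, between 23973 and 29899. All 4 had LOC108114856, which spans 13049 to 30305, as the gene with most of their aligned bases. The units of ranks 2, 16 and 18 shared covered bases with 3, 2 and 5 genes. Whether the 4 units are transcripts of LOC108114856 was not tested. The highest of them had 17239 CPM (17139 to 17340; 112947 pairs), of which 15.3% were distinct fragments, and 52432 pairs crossed its most used intron of 72 nt. The others among the 20 highest had 6101 and 5263 CPM. This was the only group of 3 or more when the 100 highest units, placed by these stretches, were joined over up to 10000 nt. In all, 8 groups of 2 or more held 18 of the 100 units, 5 of the groups had units on both strands, and the 100 units lay on 41 contigs.

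By the rule of 3 pairs, high units without introns were few, and the rule of 1% left further ones without an intron, as given below. LOC108104438, on the plus strand of NW_024573030.1 from 2097857 to 2098829, had 6956 CPM (45576 pairs) and no intron, and its span followed its gene closely (2097995 to 2098823). The other unspliced unit of the 20 highest lay on the minus strand of NW_024571840.1 from 13074 to 13677, with 6425 CPM and 12.7% distinct fragments, the lowest share among the 20. On the same contig, on the plus strand from 1263 to 9946, a unit had 7867 CPM from 51542 pairs. It was joined by 3 introns, and the 1 chosen among them, of 1493 nt, was crossed spliced by 29 pairs. When introns had to be crossed by 1% of the pairs at their deeper end, the unit came apart, and its main stretch of 2366 nt held 30769 pairs and no intron. This contig held 1.84% of the pairs of the library. Its units lay on both strands between 1263 and 13677, and most of them had no intron. Whether the contig belongs to the nuclear genome or to an organelle was not tested.

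Rare introns lengthened several of these units. In 6 of the 20 the span fell by more than 50% when an intron also had to be crossed by at least 1% of the pairs at its deeper end. The unit over LOC108108178 spanned 94491 nt through an intron of 93604 nt that 5 of its 42246 pairs crossed, and it spanned 1675 nt under that rule. The unit over LOC108110694 went from 49965 to 1277 nt in the same way, through an intron of 49030 nt crossed by 11 pairs. The unit over LOC108113223 went from 14689 to 730 nt and kept no intron, since its only intron was crossed by 4 of its 39804 pairs. The third highest unit, on NW_024572388.1, kept its span of 44757 nt under the rule although it covered 3501 nt. The covered length could shrink as well. The unit of rank 18, over LOC108114856 from 18758 to 63589, covered 5243 nt and spanned 1011 nt under the rule, with 34178 of its 34484 pairs. Spans of high units joined by rare introns can therefore be too long, and so can their covered length. Units can also be too short, since a gap in coverage that no counted intron crosses ends a unit.

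The 100 highest units were compared with the other units, without a test. Of these units, 97.0% were spliced, with a median of 3 introns, as in the 5311 other units with 100 pairs or more, of which 88.3% were spliced. Their covered length had a median of 1250.5 nt (quartiles 993 to 1717), against 1655 nt (1096 to 2379) in those other units. Their introns had a median of 146 nt, against 69 nt, and 10.1% against 12.9% of the introns reached 1000 nt. In both sets 3 crossing pairs were enough for a unit to count as spliced. The number of pairs differed between these sets by construction, and its part in the spliced share and the intron lengths was not tested.

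The 5 longest units had between 5.19 and 403 CPM, all under the 20 highest. The longest spanned 170948 nt on the minus strand of NW_024572899.1, from 104262 to 275209, with 5 introns, 415 pairs and 63.3 CPM (57.4 to 69.7), and it covered only 2119 nt. The second, over LOC108117117, spanned 153267 nt with 7 introns and 403 CPM. LOC108107547 and LOC108115595, the fourth and the fifth, spanned 130904 and 130433 nt with 9 introns each and 46.1 and 30.1 CPM. Their spans lay within their genes (5283949 to 5419773 and 2641066 to 2799532), and each shared covered bases with 1 gene. The second longest went the other way, since it shared covered bases with 3 genes and LOC108117117 itself lies from 1574919 to 1603052.

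The third longest unit lay on NW_024573031.1. The number of this contig ends in the digits by which the study named a piRNA cluster, and whether it holds that cluster was not settled here. The study places that cluster inside the intron of a gene that codes for protein. Whether the units of this contig belong to such a gene or to a piRNA precursor was not tested. The third longest unit ran on the plus strand from 42109 to 181794 with 34 pairs, 5.19 CPM (3.59 to 7.25), 4 introns and 434 covered nt. The contig had 3 units with 10 pairs or more, all on the plus strand in a row. The unit before it ran from 19306 to 41905 with 20 pairs and an intron of 22357 nt. The unit after it ran from 181972 to 283369 with 64 pairs, 9.77 CPM, 4 introns and an intron of 74347 nt. Together they covered few bases of a stretch that was spanned almost wholly by introns. No unit of 10 pairs or more was found on the minus strand of that contig.

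The longest introns crossed by at least 10 pairs were 73926 to 95982 nt. The longest, in LOC108115595 (2684810 to 2780791 on NW_024573338.1), was the second from the 5' end of its unit and was crossed by 12 of the 197 pairs. The next, of 92488 nt on NW_024572849.1, was also a second intron, with 16 of 404 pairs. The other 3 had 81815, 75530 and 73926 nt, and the last of these, in LOC108117695, and that of 75530 nt were first introns of their units. The one of 81815 nt was the last of 3 introns in the unit over LOC108105024.

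The units with most introns had middling levels. The first had 22 introns (23 exons) on the plus strand of NW_024573270.1, from 937601 to 961470, with 530 pairs and 80.9 CPM. LOC108108496 had 19 introns, 1336 pairs and 204 CPM. LOC108115283 and LOC108108743 had 18 introns each, with 86.4 and 85.6 CPM, and LOC108109364 had 17 with 132 CPM. All 5 were over the 12.2 CPM of the median unit and far under the 20 highest.

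Units were compared with the annotated genes after the genes had been assigned to contigs from the splice junctions. Of the 15386 genes in the table, 13709 (89.1%) were assigned, and 10582 units (90.3%) lay on contigs with assigned genes. Of these, 10401 (98.3%) shared a covered base with a gene, while genes made up 66.4% of the length of those contigs. Protein-coding genes lay under 10316 units with 87.2% of the pairs. The 39 units over lncRNA genes had a median of 3.21 CPM, against 13.4 CPM over protein-coding genes, and held 0.152% of the pairs. The table gives no strand for genes, so a unit antisense to a gene was counted with it.

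A gene often held several units. Units were found over 6296 genes (45.9% of the assigned genes), of which 4262 (67.7%) had 1 unit, 1087 had 2, 461 had 3 and 486 had 4 or more. The most was 17 units over LOC108105027. Each unit was counted only for the gene with most of its aligned bases. Covered bases were shared with 2 or more genes by 1805 units, so 45.9% can be too low. Units outside genes numbered 181, of which 12 were spliced, with a median of 19 pairs against 87 in units over genes, and they held 0.133% of the pairs. The low number of spliced ones follows in part from the assignment, which chose contigs by junctions inside genes. The highest unit outside genes lay on the minus strand of NW_024573030.1 from 55618 to 56134, without an intron, with 3464 pairs (529 CPM). QuantSeq placed 50882 read ends at its 3' end. The next highest outside a gene had 333 pairs and 1 intron.

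Neighbouring units were mostly on the same strand, and this came mainly from units over the same gene. Among 9712 neighbouring pairs of units, 5933 (61.1%) were tandem, 1884 (19.4%) convergent and 1895 (19.5%) divergent. Changes of strand along a contig alternate between convergent and divergent, so their near equal numbers follow from the count itself. On contigs with assigned genes, 3305 of the 5380 tandem neighbours (61.4%) lay over the same gene, at a median gap of 66 nt. With neighbours over the same gene left out, 37.5% of the remaining 5527 were tandem, 31.1% convergent and 31.4% divergent. In the other polyA libraries 49.6% (D. pseudoobscura) and 53.0% (D. bifasciata) of neighbours were on the same strand, counted without regard to genes. Median aligned bases per pair were 116 in D. eugracilis and D. pseudoobscura and 158 in D. bifasciata.

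**Figure D5:**
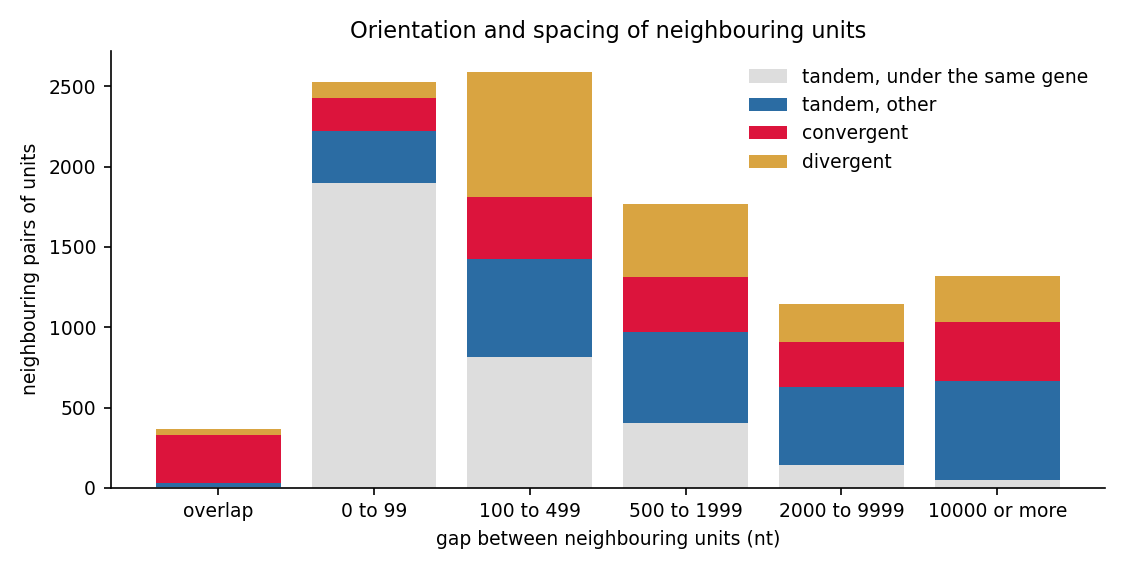
Number of neighbouring pairs of units (y) by the gap between them in nt (x), stacked by orientation. Grey, tandem neighbours over the same assigned gene; blue, all other tandem neighbours, those on contigs without assigned genes included. Of the 2525 neighbours 0 to 99 nt apart, 1897 are tandem and over the same gene, and 301 of the 364 overlapping neighbours are convergent.

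Neighbours were close, and many close ones lay over the same gene. The median gap was 367 nt (quartiles 64 to 2080), and 52.7% of the neighbours lay 0 to 500 nt apart. Tandem neighbours over the same gene were 1897 of the 2525 neighbours 0 to 99 nt apart. They were 814 of the 2591 at least 100 and less than 500 nt apart. Under the alternative settings given below, the median gap ranged from 177 to 1299 nt. The gap depended on orientation. Between tandem neighbours over different genes its median was 1641 nt, between convergent neighbours over different genes 571.5 nt and between divergent ones 506 nt. Few divergent neighbours were closer than 100 nt, with 99 of them 0 to 99 nt apart and 781 at least 100 and less than 500 nt apart. For convergent neighbours these counts were 208 and 384.

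Overlaps were mostly between convergent units, at their 3' ends. Of 364 overlapping neighbours (3.75%), 301 were convergent, 36 divergent and 27 tandem. The overlap was found in 16.0% of convergent and 1.90% of divergent neighbours, and its median was 85 nt in the convergent ones. The same measure was 19.9% in D. pseudoobscura and 25.9% in D. bifasciata for convergent neighbours, and 1.90% and 4.56% for divergent ones. Another 1796 units (15.3%) lay wholly inside the span of another unit and were left out of the neighbours. Of these, 916 were on the strand of their host and 880 on the other, and 870 lay inside a single chosen intron. Their 424 hosts had a median span of 18731.5 nt, and 56.5% of the nested units were spliced, against 65.7% of the others.

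Among neighbours with at least 100 pairs each, the closest convergent ones abutted. The plus-strand unit over LOC108113043 ended at 7662088 of NW_024573812.1 with 682 pairs, and the minus-strand unit over LOC108113044 began at the next base with 140 pairs. Gaps of 1 and 2 nt separated LOC108113150 from LOC108113152 (123 and 334 pairs) and LOC108109075 from LOC108109076 (768 and 4538 pairs). The closest divergent neighbours were LOC108113715 and LOC108113707 at 0 nt, with 375 and 844 pairs and no intron in either. LOC108104186 and LOC108104188 lay 8 nt apart (328 and 1387 pairs), and LOC108113461 and LOC108113464 lay 9 nt apart (436 and 139 pairs). In each of these 6 the levels of both members differed by between 2.25 and 5.91 times.

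The levels of neighbours resembled each other within genes and hardly at all between genes. Across the 3305 tandem neighbours over the same gene, the CPM per covered kb of both members had a Spearman correlation of 0.66 (Pearson 0.71 on the log2 scale), and their median difference was 0.40 log2 units. Across tandem neighbours over different genes it was 0.10 (Pearson 0.08, n = 2075), with a median difference of 1.48 log2 units. It was 0.09 for 1718 convergent neighbours and 0.02 for 1734 divergent neighbours over different genes. Divergent neighbours less than 500 nt apart had 0.01 (n = 861). Tandem neighbours over different genes and less than 500 nt apart stood higher, at 0.27 (n = 613). Over all neighbours it was 0.41, falling to 0.22 for units 2 places apart, 0.03 for units 5 places apart and -0.01 for units 20 places apart. These are correlations across units of 1 library, which share its depth, and units are not independent replicates.

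QuantSeq served as an independent readout of where the units ended. The paper marks a peak of this library as suspected priming inside an RNA, so read ends can also lie away from RNA 3' ends. How many of the read ends counted here arose in that way was not tested. At least 3 QuantSeq read ends lay within 100 nt of the 3' end on the same strand in 6674 units (56.9%, 95% interval 56.0 to 57.8). At the 5' ends of the units the share was 19.3%, and on the opposite strand at the 3' end 16.2%. The share rose with the number of pairs, from 29.9% of units with fewer than 30 pairs to 80.9% with 100 or more but fewer than 1000 and 89.7% with 1000 or more. Between units with fewer than 30 pairs and those with 1000 or more, the share at the 5' ends rose as well, from 17.4% to 29.8%. The share on the opposite strand at the 3' end rose from 5.78% to 26.7%. The share at the 3' end on the same strand was 62.9% in spliced and 46.2% in unspliced units.

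The position of a unit within its gene went with its QuantSeq end. Among units that were alone over their gene and strand the share was 85.8% (84.7 to 86.8, n = 4470), and among the last of several units over a gene 76.2% (n = 1963). Among units upstream of the last it was 16.5% (15.4 to 17.7, n = 3968), beside 15.1% at the 5' ends of these same units. Units outside genes had 67.4% (60.1 to 74.2, n = 181) at their 3' ends and 47.5% at their 5' ends, while units alone over their gene had 20.8% at their 5' ends. Among the 20 highest units 13 had such ends, and 19 of 20 had them once introns had to be crossed by 1% of the pairs at their deeper end. At least 3 read ends were enough for this count, and the highest unit had 14 beside its 122113 pairs. Of the 6256158 QuantSeq reads, 50.6% ended near the 3' end of a unit, and the commonest QuantSeq end around a unit with such reads lay a median of 14 nt beyond the unit's end (quartiles -24 to 65).

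Pairs were spread over the length of the units without a strong tilt to one end. In the 4292 units with at least 100 pairs and 1000 covered nt, the mean position of the pairs, from 0% at the 5' end to 100% at the 3' end, had a median of 48.3% (quartiles 44.8 to 51.5). When these units were divided into 3 parts of equal length, the part at the 5' end held 31.2% of the pairs, the middle 40.1% and the part at the 3' end 28.7%. A unit can be part of a gene, so the spread along whole transcripts was not tested by these values.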

How the data were processed

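Ovary RNA was selected on oligo-dT beads and made into directional paired-end libraries. Per the labels and methods, the authors trimmed reads, mapped them with STAR 2.7.3a to ASM1815383v1 (D. eugracilis) and deposited genome-unique alignments, handled with SAMtools 1.10 and bedtools 2.28.0. The deposited score column holds the same value in every line and was not used as a level. Reads with several genomic places were not analysed here, so repeated genes are seen in part.

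Pairs were joined by name and assigned to the unit that held their longest aligned block. Units, introns and neighbours were computed in Python 3.11.15 with numpy 2.4.6, scipy 1.17.1, pandas 2.3.3 and numba; the code was tested on simulated data. The 15386 genes formed 267 runs of rising start, and a run was assigned to a contig when at least 90% of at least 30 junctions lay inside 1 gene, the junctions reached 50% of the run, and only 1 contig passed (50 runs, at least 93.8% on the chosen and at most 88.6% on the next contig). Gene names of units therefore rest on an inferred contig. Named units are the 20 with most pairs, the 5 longest, the 5 with most introns, the 5 longest introns crossed by 10 pairs, and the 3 closest convergent and divergent neighbours with 100 pairs each. The groups of high units and the third longest unit's contig were described after their values were seen. The division of the series, the lists and the alternatives were chosen with earlier results of these data known. Precision is limited by depth (6551749 pairs): intervals are exact (Clopper-Pearson or Poisson) at 95%, and pairs without molecular identifiers are not independent molecules.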

Additional observations from a re-analysis of the deposited data

How the results depend on the processing

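Of 234 values recomputed under alternatives, 126 stayed within the counting interval of the reported value (counts of units within 1.5 times) and 108 moved. The convergent share of neighbours on opposite strands is fixed near 50% by construction, so that it moved in none of its 18 alternatives says nothing about stability. The QuantSeq share moved in 16 of 20 alternatives, the median span in 13 of 17, the median level in 13 of 18 and the unit number in 4 of 17. The median level ranged from 0.458 to 59.4 CPM, the overlapping share from 0.574% to 15.0% and the tandem share from 37.5% to 77.2%, whereas the median intron stayed between 69 and 71 nt. Values that moved follow, by setting. Merging blocks up to 50 nt apart gave 70.4% of units spliced, a median span of 1491.5 nt, a median level of 19.7 CPM, 37.0% of pairs in the 100 highest, a median gap of 498 nt, 53.6% of neighbours tandem, 5.13% overlapping and 63.8% with a QuantSeq end. A merging distance of 200 nt gave 77.0% of units spliced, a median span of 2106 nt, a median of 3 introns, a median level of 32.1 CPM, 37.1% of pairs in the 100 highest, a median gap of 725 nt, 42.8% of neighbours tandem, 9.16% overlapping and 70.7% with a QuantSeq end. Joining across the stretch between mates, up to 1000 nt, gave 65.4% of units spliced, a median span of 1168 nt, a median level of 13.0 CPM, a median gap of 389 nt, 59.7% of neighbours tandem and 58.3% with a QuantSeq end. Bases covered by at least 3 pairs gave 57.2% of units spliced, a median span of 663 nt, a median level of 6.87 CPM, 36.8% of pairs in the 100 highest, a median gap of 305 nt, 69.0% of neighbours tandem, 1.68% overlapping and 47.8% with a QuantSeq end. Introns crossed by 10 pairs or more gave 41.5% of units spliced, a median span of 701 nt, a median level of 7.33 CPM, 36.7% of pairs in the 100 highest, 68.0% of neighbours tandem, 2.58% overlapping and 48.5% with a QuantSeq end. Single-pair introns gave 71.3% of units spliced, a median span of 1325 nt, a median intron of 71 nt, a median level of 13.0 CPM, 37.8% of pairs in the 100 highest, a median gap of 311 nt, 15.0% overlapping and 53.8% with a QuantSeq end. An intron limit of 20000 nt gave 36.8% of pairs in the 100 highest. Units of 3 pairs or more gave 20428 units, 41.5% of units spliced, a median span of 430 nt, a median level of 2.14 CPM, a median gap of 242 nt, 72.4% of neighbours tandem, 2.84% overlapping and 41.6% with a QuantSeq end. A minimum of 100 pairs gave 5411 units, 88.4% of units spliced, a median span of 2182 nt, a median of 3 introns, a median level of 59.4 CPM, a median gap of 1177 nt, 41.0% of neighbours tandem, 5.33% overlapping and 82.6% with a QuantSeq end. No minimum of pairs gave 40545 units, 21.0% of units spliced, a median span of 155 nt, a median level of 0.458 CPM, a median gap of 177 nt, 77.2% of neighbours tandem, 3.18% overlapping and 27.1% with a QuantSeq end. Counting identical pairs once gave 66.0% of units spliced, a median span of 1161 nt, a median level of 19.0 CPM, 23.7% of pairs in the 100 highest, 556 units with 50% of the pairs, a median gap of 392 nt, 59.3% of neighbours tandem and 59.1% with a QuantSeq end. Keeping the opposite-strand units gave a median span of 1059 nt, a median level of 11.3 CPM and 55.4% with a QuantSeq end. Keeping nested units among the neighbours gave a median gap of 345 nt and 7.33% overlapping. A QuantSeq window of 25 nt gave 40.9% with a QuantSeq end. One of 500 nt gave 72.7% with a QuantSeq end. At least 10 QuantSeq reads gave 50.2% with a QuantSeq end. Leaving out NW_024572388.1, the contig most held by its own highest unit among those with at least 1% of the pairs, gave 36.4% of pairs in the 100 highest. The opposite-strand limit of 30 times and counting alignment lines moved no value.

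The remaining alternatives were chosen after seeing the data. Requiring 1% of the pairs at the deeper end of an intron gave 36.5% of pairs in the 100 highest. Leaving out NW_024571840.1 gave 36.4% of pairs in the 100 highest. A seeded draw of 50% of the pairs gave a median span of 1001 nt, a median level of 15.3 CPM, 36.7% of pairs in the 100 highest, a median gap of 449 nt, 2.43% overlapping and 55.5% with a QuantSeq end. One of 10% gave 5813 units, 59.7% of units spliced, a median span of 787 nt, a median intron of 71 nt, a median level of 35.1 CPM, 36.3% of pairs in the 100 highest, a median gap of 1299 nt, 59.3% of neighbours tandem, 0.574% overlapping and 54.1% with a QuantSeq end. Leaving out neighbours over the same gene gave 37.5% of neighbours tandem.

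No paired analysis was possible because each group had 1 library and no 2 groups share replicate numbers that pair samples. Depth limited the units under 10 CPM and the introns of units with few pairs, whose absence here does not show that they are absent from the RNA.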
